A study of Sus scrofa with 6 samples.

Results

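The 6 libraries of a series on pig 4-cell embryos were compared by the replicate number in their labels instead of by culture temperature. Each of the numbers 1, 2 and 3 belongs to 1 library from embryos kept at 38.5 °C (called control 1, 2 and 3 here) and to 1 library from embryos kept at 41.5 °C (heated 1, 2 and 3). All 6 of the 6 libraries in the series entered, 2 per number, and the number 1 libraries were set against the number 3 libraries with temperature as a block and the number 2 libraries as a middle point. The labels do not say what the number stands for. Nor do they name separate cultures behind the libraries. All p-values therefore refer to the spread among the 6 libraries alone, and that spread may be technical.

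All embryos came from oocytes activated with direct-current pulses, with no sperm named in the labels, and were cultured for 4 days under mineral oil in PZM-5 medium with BSA and 5% CO2. The genotype field reads WT for the control libraries and HT for the heated ones, and the culture temperature is the 1 difference in treatment that the labels give. About 300 samples in lysis buffer went into library construction, with no statement of how many per library. Polyadenylated RNA was captured on oligo(dT) beads and amplified with SMART-Seq v4, and this method keeps no record of the strand. Every library is a bulk pool, so fewer embryos that contain a transcript and less of that transcript per embryo cannot be told apart.

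An early embryo starts with RNA and protein stored by the oocyte. It clears the stored transcripts while its own genome begins to be transcribed, a switch known as zygotic genome activation, and in pigs the main wave of this switch falls at about the 4-cell stage. MOS, a kinase that holds the mature egg in meiotic arrest, is a typical stored transcript, and EIF1AX, a translation initiation factor, is widely used as a marker of pig genome activation. The series was made to ask how high temperature affects this switch.

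Depth was similar in the 6 libraries, from 28114005 to 30079385 counts in genes, and 17001 of 30376 genes reached 10 or more counts in 2 or more libraries. All 8 markers of oocytes and early embryos, among them GDF9 and the zona pellucida genes ZP2, ZP3 and ZP4, had 10 or more counts in every library. Of 20 genes listed for cumulus and granulosa cells, which surround the oocyte, 7 had no count in any library, FSHR, AMH, FOXL2, CYP11A1 and NR5A1 among them. Another 7 had 10 or more counts in every library, among them AREG with 202 to 415 counts. The summed level of the cumulus and granulosa list was 33.6 to 41.2 CPM (counts scaled to a common library size) per library and that of the stromal and blood list 10.7 to 14.4 CPM. The defining genes of the oocyte and early embryo were thus present in all libraries. Several defining genes of follicle cells were at 0, while other genes of that list were detected in every library.

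Libraries of number 3 held more of a set of stored oocyte transcripts, and libraries of number 1 held more transcripts of ribosomal proteins, translation factors, ribosome assembly and genome activation markers, at both temperatures. In edgeR's quasi-likelihood test with Benjamini-Hochberg adjustment, 5301 of 17001 genes (31.2%) differed between number 3 and number 1 at an adjusted p below 0.05. Of these, 2306 genes (13.6% of those tested) were higher in number 3 and 2995 genes (17.6%) were higher in number 1. Genes higher in number 1 differed more, with a median of 2.28-fold and 1907 of them at 2-fold or more. Those higher in number 3 had a median of 1.77-fold, with 682 at 2-fold or more.

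The count rested on both number 3 libraries, and more so among genes higher in number 3 than among those higher in number 1. Without control 3 it was 1809 genes and without heated 3 it was 2129, of which 1759 and 2066 were among the 5301, all in the same direction. The split between directions depended on scaling: scaling by the library total alone gave 3547 genes higher in number 3 and 2414 higher in number 1, against 2306 and 2995 with TMM scaling, which corrects for differences in composition. The median log2 fold change of all genes was 0.08 with TMM and 0.26 with library totals, so a change near 0 has no fixed sign. The TMM factor was lowest in control 1, at 0.861, and lay between 1.01 and 1.08 in the other 5 libraries.

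The 5 genes given as markers of the contrast illustrate both directions; they were picked with earlier results of these data known, and their values are descriptions. RN18S, the 18S ribosomal RNA, stood at 105, 345 and 558 CPM in control 1, 2 and 3 and at 217, 419.6 and 973 CPM in heated 1, 2 and 3. Within each temperature the number 1 library was the lowest and the number 3 library the highest, and both number 3 libraries lay above all 4 others. The log2 fold change, number 3 against number 1, was 2.28 (standard error 0.19, edgeR adjusted p = 0.000818). Ribosomal RNA carries no regular poly(A) tail, and the 18S share of all counts was 0.00905% in control 1 and 0.105% in heated 3, the lowest and the highest of the 6.

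MOS (chromosome 4, 75739402 to 75741076, Sscrofa11.1) stood at 38.4, 95.7 and 144 CPM in the controls and at 77.6, 98.7 and 123 CPM in the heated libraries. The number 1 libraries were the lowest and the number 3 libraries the highest, with no overlap, for a log2 fold change of 1.26 (standard error 0.27, edgeR adjusted p = 0.00911). YPEL3 (chromosome 3, 18277999 to 18281342), a small protein of the yippee-like family, stood at 52.1, 149.7 and 209 CPM and at 119.9, 154 and 194 CPM. Its order over the libraries was that of MOS, with a log2 fold change of 1.31 (standard error 0.28, edgeR adjusted p = 0.0103). For both genes the difference was larger in controls (1.91 and 2.002) than in heated libraries (0.67 and 0.70). Neither call held without control 3 (adjusted p = 0.103 for MOS and 0.0965 for YPEL3).

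DPPA2 (chromosome 13, 150186833 to 150200612), a nuclear protein of pluripotent cells and an activator of early embryonic genes, stood at 668, 321 and 191 CPM in the controls and at 355, 288 and 124 CPM in the heated libraries. EIF1AX (chromosome X, 16429625 to 16449581) stood at 1049, 543 and 374 CPM and at 725, 539 and 297 CPM. For both genes the number 1 libraries were above all others and the number 3 libraries below all others. The log2 fold changes were -1.67 (standard error 0.19) for DPPA2 and -1.39 (0.16) for EIF1AX, both at an edgeR adjusted p of 0.000834.

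**Figure D1:**
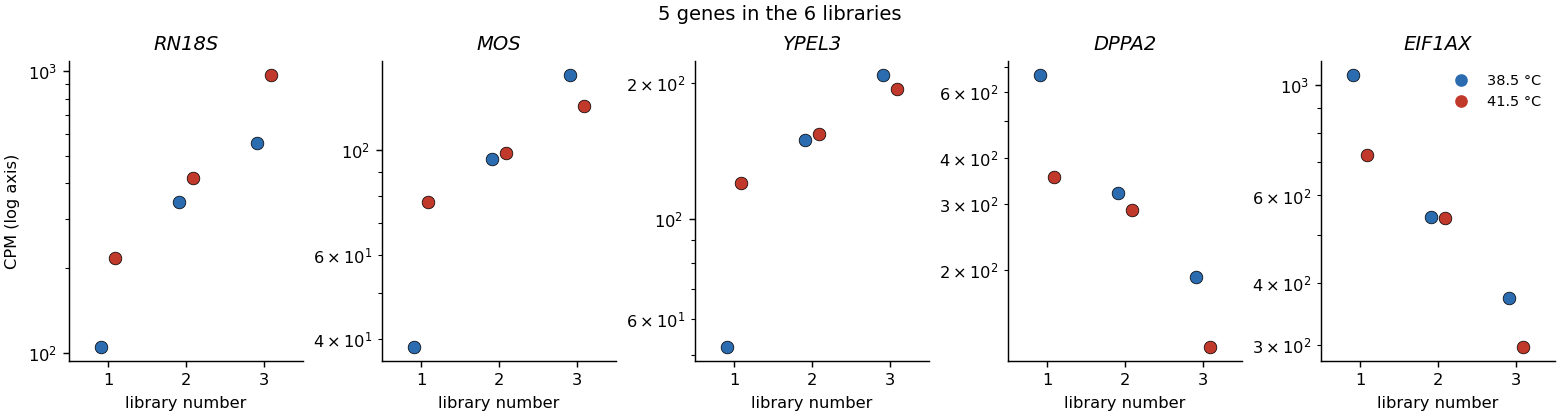
Normalised level (CPM, log axis) of RN18S, MOS, YPEL3, DPPA2 and EIF1AX in each of the 6 libraries, by library number, with 1 point per library and no error bar. Blue points are control libraries and red points heated libraries. In every panel the number 2 points lie between those of numbers 1 and 3 of the same temperature.

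The stored oocyte transcripts were the list with most members higher in number 3. Of 35 tested members 17 were higher in number 3 (48.6%, against 13.6% of all genes), 1 was lower (DPPA5, -0.41) and 17 did not pass, with a median log2 fold change of 0.65. The shares of all genes include weakly expressed ones. The median level was 4.24 CPM over all genes tested, 17.3 CPM among those higher and 16.7 CPM among those lower. Among protein-coding genes at 10 CPM or more on average, in 4 groups by transcript length, 18.45% to 23.55% were higher and 22.0% to 43.6% lower. A list share inside these ranges does not stand out from expressed genes. BTG4, an adaptor that brings the deadenylase complex to maternal mRNA, stood at 2600, 3985 and 4738 CPM in the controls and 2050, 3524 and 4782 CPM in the heated libraries. The number 3 libraries were highest and the number 1 libraries lowest at both temperatures, for a log2 fold change of 1.04 (standard error 0.13, adjusted p = 0.00116). H1FOO, the linker histone of oocytes, stood at 331, 625 and 952 CPM and at 519, 673 and 996 CPM, a log2 fold change of 1.22 (0.17, adjusted p = 0.00157).

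NPM2, a histone chaperone of egg chromatin, and WEE2, an oocyte kinase that inhibits CDK1, were also higher in number 3, with log2 fold changes of 1.37 and 1.07. OOEP (0.89), KHDC3L (1.03) and TLE6 (1.29), members of the subcortical maternal complex, were higher as well. Among those that did not pass, BMP15, a growth factor secreted by the oocyte, stood at 778, 954 and 786 CPM in the controls and 977, 832 and 849 CPM in the heated libraries, where numbers 1 and 3 overlapped. GDF9, its partner growth factor, stood at 101, 119.7 and 139 CPM and at 106, 122 and 134 CPM, higher in both number 3 libraries than in both number 1 libraries, with a log2 fold change of 0.39 (adjusted p = 0.054). None of the 8 markers of oocytes and early embryos passed the test. Without control 3 the oocyte list had 6 members called higher, and without heated 3 it had 11.

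Of 27 tested genes that control meiosis, 8 were higher in number 3 (29.6%, against 13.6% of all genes), 5 were lower (18.5%, near the 17.6% of all genes) and 14 did not pass. The higher ones included MOS, WEE2 and AURKA, a spindle kinase at 444, 549 and 779 CPM in the controls and 466, 669 and 774 CPM in the heated libraries (log2 fold change 0.77, adjusted p = 0.00394). The lower ones included CDK1, WEE1, ARPP19 and PPP2R2A. CDK1, the kinase that drives entry into division, stood at 1307, 565 and 386 CPM in the controls and at 712, 593 and 312 CPM in the heated libraries, with all number 1 values above all number 3 values (-1.50, standard error 0.21, adjusted p = 0.00165). WEE1, the somatic counterpart of WEE2, had a log2 fold change of -1.19, so the oocyte form and the general form of this CDK1 inhibitor changed in opposite directions. Without control 3, 1 member was higher and 2 lower, and without heated 3, 7 and 2. The calls of AURKA without control 3 (adjusted p = 0.101) and of WEE1 without heated 3 (0.055) were lost.

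Against 13.6% higher and 17.6% lower among all genes, genes that store maternal mRNA and set its poly(A) tail split evenly. Of 28 tested, 7 were higher in number 3, 7 lower (25% each) and 14 not called. Those lower in number 3 included general factors: PABPC1, the main cytoplasmic poly(A)-binding protein, at 116, 68.0 and 47.9 CPM and 78.5, 59.7 and 43.9 CPM (log2 fold change -1.06), and PAPOLA, the canonical poly(A) polymerase (-1.04). Those higher included germ-line forms: EIF4E1B, the oocyte form of the cap-binding protein, at 8.26, 12.3 and 17.2 CPM and 10.4, 14.3 and 23.6 CPM (1.12, adjusted p = 0.00253). CPEB1, a regulator of cytoplasmic polyadenylation (0.97), and PABPN1L, a poly(A)-binding protein of oocytes (1.60), were chosen after their values were seen. The lower share lay within the 22.0% to 43.6% of expressed protein-coding genes, and the higher share was just above their 18.45% to 23.55%. The median of the list was -0.13, with a sign that turned to 0.04 when libraries were scaled by their total. Without control 3, 1 member was higher and 3 lower, and without heated 3, 3 and 4.

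Genes of mRNA decay numbered 4 higher and 8 lower of 30, or 13.3% and 26.7%, against 13.6% and 17.6% of all genes. The lower share lay within the 22.0% to 43.6% of expressed protein-coding genes. The deadenylase complex CCR4-NOT had members on both sides: CNOT9 (-1.20), CNOT2 (-1.12), CNOT1 (-0.995) and CNOT8 (-0.82) were lower in number 3, and CNOT6L (0.49) and CNOT11 (0.65) were higher. CNOT9 stood at 81.4, 64.5 and 41.4 CPM in the controls and 88.6, 64.2 and 32.7 CPM in the heated libraries. YTHDF3, a reader of methylated mRNA, was lower (-1.03), and the other 2 higher members were BTG4 and PARN, a poly(A)-specific ribonuclease (0.66). Without control 3 or without heated 3 the list had 1 member higher and 5 lower.

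Genome activation markers were mostly lower in number 3. Of 31 tested members, 17 were lower (54.8%, against 17.6% of all genes), 2 were higher and 12 did not pass, with a median log2 fold change of -0.59. Beside DPPA2 and EIF1AX, KLF4, a transcription factor of pluripotent cells, stood at 705, 350.3 and 246 CPM in the controls and at 626, 353 and 241 CPM in the heated libraries. Its number 1 and number 3 values did not overlap, and the number 2 values lay between (log2 fold change -1.45, standard error 0.13, adjusted p = 0.000818). EIF3A, a subunit of a translation initiation complex, stood at 271, 131 and 88.0 CPM and at 210.3, 148 and 90.7 CPM (-1.43, adjusted p = 0.000921).

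The 2 higher members were POLR2A, the largest subunit of RNA polymerase II (0.55), and LIN28A, an RNA-binding protein of embryonic cells (0.83), named because the count is small. Homeobox genes of early activation, ARGFX (-1.49) and LEUTX (-0.73), were lower, and DUXA did not pass (-0.23). ZSCAN4 had 0 to 6 counts per library and was not tested. The lower count was 13 without control 3 and 8 without heated 3. The summed level of the list was 8263, 5658 and 4384 CPM in the controls and 6226, 5273 and 3663 CPM in the heated libraries. Its most abundant member was DPPA3, at 2432, 1694 and 1406 CPM and at 1337, 1512 and 1181 CPM. DPPA3 is also among the 8 markers of oocytes and early embryos and did not pass (-0.50, edgeR adjusted p = 0.0618). For the summed oocyte list the levels were 6588, 9110 and 10397 CPM and 6339, 8082 and 10171 CPM. A large part of these sums was BTG4, at 2600, 3985 and 4738 CPM and 2050, 3524 and 4782 CPM. In an exact permutation test of numbers within each temperature, two-sided, the sums of both lists gave p = 0.0556. This is the smallest that the 36 arrangements allow, and it was 0.0833 after adjustment over 21 measures. The summed 8 markers of oocytes and early embryos changed in the opposite direction to the oocyte list, with the same p by this test. They stood at 3734, 3225 and 2826 CPM and at 2885, 2840 and 2630 CPM. Without DPPA3 their difference was 9.08 CPM, higher in number 3.

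**Figure D2:**
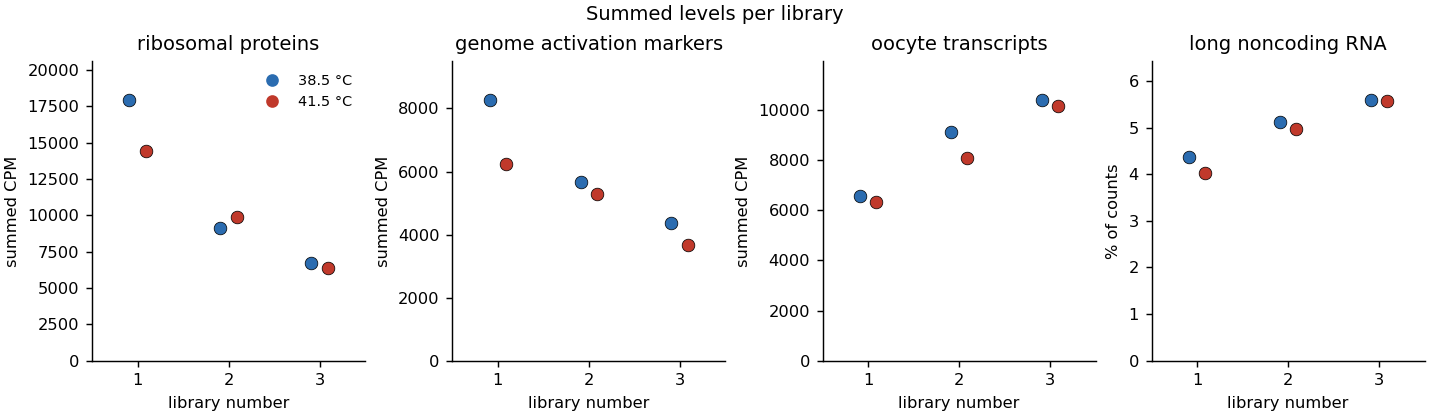
Summed level of ribosomal protein genes, genome activation markers and oocyte transcripts (CPM) and share of counts in long noncoding RNA (%), by library number, 1 point per library, blue for control and red for heated, axes from 0. Ribosomal protein genes and genome activation markers are highest in the number 1 libraries, and oocyte transcripts and long noncoding RNA in the number 3 libraries.

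Cytosolic ribosomal protein genes were lower in number 3 almost throughout. Of 78 tested, 72 were lower in number 3 (92.3%, against 17.6% of all genes) and none was higher. The other 6 (RPL3, RPL28, RPL35A, RPLP0, RPS24 and RPS28) did not pass, with values of -0.41 to -0.10. The median log2 fold change was -1.47, and the summed level was 17918, 9156 and 6708 CPM in the controls and 14409, 9872 and 6350 CPM in the heated libraries. Both number 1 libraries were above all others and both number 3 libraries below all others. RPS4X, a small-subunit protein, stood at 387, 151 and 69.7 CPM and at 295, 171 and 67.7 CPM (log2 fold change -2.31, standard error 0.17, adjusted p = 0.000818). RPL29 (-1.95), named with it for its small p-value, was lower too. The lower count was 68 without control 3 and 66 without heated 3, and the median lay between -1.66 and -1.23 over all scalings and left-out libraries tried. Ribosomal protein genes have many processed copies in mammalian genomes, so how reads were divided among copies is uncertain.

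Genes that build the ribosome or use it moved the same way. Translation factors were lower in number 3 in 38 of 45 cases (84.4%, against 17.6% of all genes) and higher in 1 (EIF5B, 0.37). Their median was -1.21. GSPT1, a translation termination factor, stood at 464, 235 and 149 CPM in the controls and at 382, 261 and 157 CPM in the heated libraries (-1.46), and its partner ETF1 had -1.38. EIF3H (-1.60) and EIF3G (-1.84), subunits of the same initiation complex as EIF3A, were lower too.

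Ribosome biogenesis genes were lower in 41 of 64 cases (64.1%, against 17.6% of all genes) and higher in 3 (LTV1, TAF1A and NAT10). Their median was -0.78. NOP58, a core protein of the particles that methylate ribosomal RNA, stood at 817, 501 and 285 CPM and 704, 472 and 266 CPM (-1.46), and NOP16, MRTO4 and NIP7, which act in maturation of the large subunit, had -2.22, -2.11 and -1.83. Without control 3 the lower counts were 31 translation factors and 21 biogenesis genes, and without heated 3 they were 26 and 23. The 18S ribosomal RNA moved in the opposite direction to the genes for ribosomal proteins and for ribosome assembly.

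Mitochondrial genes fell into groups of different size of change. Of 73 mitochondrial ribosomal protein genes, 41 were lower in number 3 and 8 higher, with a median of -0.92. MRPL17 stood at 121, 62.6 and 36.6 CPM in the controls and at 95.1, 67.7 and 28.1 CPM in the heated libraries (-1.74), and the higher ones ranged from MRPS17 (0.47) to MRPL34 (0.81). Of 48 nuclear genes of oxidative phosphorylation, 30 were lower (62.5%, against 17.6% of all genes) and none higher, with a median of -0.88. COX7A2, a subunit of cytochrome c oxidase, stood at 789, 281 and 174 CPM and at 541, 337 and 165 CPM (-1.96), and NDUFA9 (-2.32), NDUFB7 (-2.13) and NDUFA13 (-2.12), subunits of complex I, were lower as well.

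Transcripts made in the mitochondrion itself had smaller values. All 13 had values below 0, with a median of -0.33, and 5 passed (38.5%, against 17.6% of all genes lower): ND4L, ND4, ND5, ND6 and COX1. COX1 stood at 90557, 68497 and 65885 CPM in the controls and at 84702, 78034 and 69542 CPM in the heated libraries (-0.37, standard error 0.11, adjusted p = 0.0371). ND4L and ND4 lie on the same strand and overlap in the annotation only from 11359 to 11365. ND6 and ND5 overlap too, and how reads in shared bases were divided is not known. None of the 13 passed without control 3 or without heated 3, 12 passed without heated 1, and 1 passed on the FPKM or TPM scales. These transcripts made up 23.6, 21.0 and 21.5% of counts in the controls and 26.7, 24.9 and 23.8% in the heated libraries. The lower counts of the mitochondrial ribosomal and nuclear oxidative phosphorylation lists were 31 and 20 without control 3, and 27 and 21 without heated 3.

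Other core machinery was lower in number 3 in part. Splicing genes were lower in 30 of 68 cases (44.1%, against 17.6% of all genes) and never higher (median -0.57). SRSF7, a splicing regulator, stood at 615, 227 and 148 CPM in the controls and at 446, 286 and 118 CPM in the heated libraries (-1.99), and SF3B5, a small protein of the U2 particle, had -1.97. Proteasome genes were lower in 17 of 36 cases (47.2%, against 17.6% of all genes) and higher in 1, PSMA7 (0.96). PSMB7, a catalytic subunit, stood at 394, 183 and 112 CPM and at 305, 198 and 85.0 CPM (-1.83).

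Genes of RNA polymerase II, Mediator and general factors were lower in 29 of 65 cases and higher in 5. These shares were 44.6% and 7.7%, against 17.6% and 13.6% of all genes. POLR2B, the second-largest polymerase subunit, stood at 203, 108 and 71.1 CPM and at 168, 118 and 69.3 CPM (-1.40). MED8 (-1.71) and MED10 (-1.69) of Mediator were lower, and MED17 (0.63) and MED27 (0.94) were among the higher ones, with POLR2A, TAF4 (0.70) and GTF2E1 (0.71). Both largest subunits of the polymerase thus changed in opposite directions, though the call for POLR2A was near the threshold (adjusted p = 0.048). Without control 3 the lower counts of splicing, proteasome and polymerase II genes were 20, 14 and 20, and without heated 3 they were 21, 14 and 20.

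**Figure D3:**
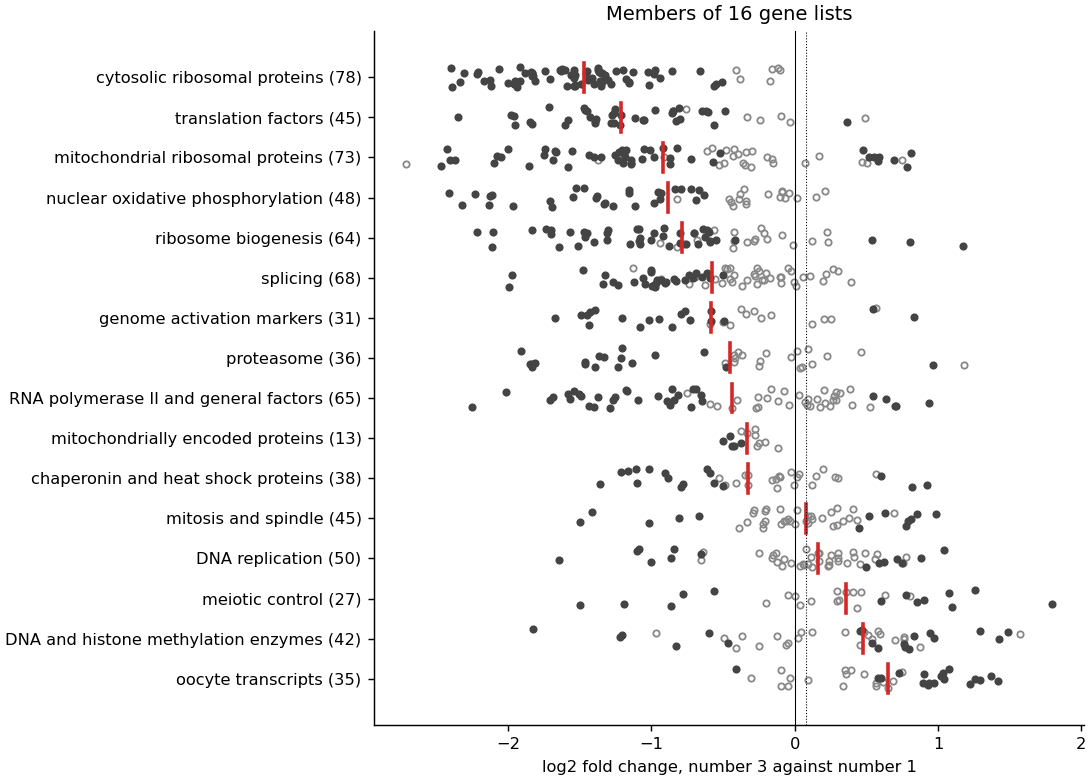
Log2 fold change of number 3 against number 1 for each tested member of 16 gene lists, with the number of members in parentheses. Filled points passed the edgeR test (adjusted p below 0.05), open points did not, the red bar is the median of the list, and the dotted line is the median of all genes tested (0.08). Cytosolic ribosomal proteins lie lowest (median -1.47) and oocyte transcripts highest (0.65).

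Enzymes that write, read or remove DNA and histone methylation were higher in number 3 in 13 of 42 cases and lower in 6. These shares were 31.0% and 14.3%, against 13.6% and 17.6% of all genes. The median of the list was 0.48. TET3, the oxidase that acts on methylated cytosine in the zygote, stood at 6.56, 12.4 and 22.5 CPM in the controls and at 9.84, 14.4 and 22.8 CPM in the heated libraries (1.49, standard error 0.20, adjusted p = 0.00135). UHRF1, which guides the maintenance methyltransferase and was chosen after its values were seen, had 1.43, and the methyltransferases DNMT1 (0.47), DNMT3A (0.58) and DNMT3B (0.98) were higher. The lower ones included EED, a subunit of Polycomb complex 2, at 289.9, 101 and 72.1 CPM and at 232, 156 and 75.7 CPM (-1.83). TDG, a glycosylase that removes oxidised methylcytosine, had -1.22, and KDM5B, a histone demethylase used as a genome activation marker, had -1.21. Without control 3 or without heated 3 the list had 3 members higher and 3 lower.

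Cell cycle genes were less one-sided. Of 45 genes of mitosis and the spindle 8 were higher in number 3 and 5 lower, with a median of 0.08, the value of all genes. MAD2L1, a spindle checkpoint protein, stood at 1763, 860.2 and 524 CPM in the controls and at 787, 753 and 387 CPM in the heated libraries (-1.41), and BUB1B, of the same checkpoint, at 141, 208 and 244 CPM and at 126, 182 and 217 CPM (0.79). The other 4 lower ones were CDK1, SPC25, CCNA2 and ANLN. Of 50 DNA replication genes 7 were higher and 7 lower. The origin recognition complex had ORC4 at -1.64 and ORC6 at 0.72, and POLD3, a subunit of DNA polymerase delta, was higher (1.04).

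The shares called in both cell cycle lists lay near those of all genes (13.6% higher and 17.6% lower). Scaling by library totals gave 15 replication genes higher and 6 lower. Without control 3, 2 mitosis genes and 2 replication genes were lower and none was higher. Without heated 3, 5 and 1 were higher and 4 and 2 lower. The calls of BUB1B (adjusted p = 0.0659), CCNA2 (0.0629), POLD3 (0.0748) and ORC6 (0.0858) did not hold without control 3. Among 9 tested histone genes and their processing factors, H3F3A (-1.43) and H2AFZ (-1.30), variant histones deposited outside replication, were lower. H1FOO (1.22), SLBP, which binds the histone mRNA stem-loop (0.97), H2AFY (0.91) and LSM11 (0.51) were higher. Without control 3 or without heated 3 there were 2 higher members and 2 lower.

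Genes of apoptosis and the p53 response were lower in number 3 in 14 of 29 cases (48.3%, against 17.6% of all genes). Another 4 were higher (13.8%, near the 13.6% of all genes). The lower share was somewhat above the 22.0% to 43.6% of expressed protein-coding genes. DIABLO, a mitochondrial protein that blocks caspase inhibitors, stood at 98.3, 40.4 and 16.6 CPM in the controls and at 54.6, 38.2 and 13.9 CPM in the heated libraries (-2.29). BID, a death agonist, had -1.73, and PLK2, a p53 target, had -1.51. The lower ones also held XIAP (-0.98), MDM2 (-0.87) and MCL1 (-0.77), which restrain cell death, and the higher ones included BCL2L1 (1.11), which restrains it too, ZMAT3 (0.79) and TP53INP1 (0.79). The lower members thus include genes for and against cell death. Without control 3 the counts were 7 lower and none higher, and without heated 3, 8 and 1.

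Chaperones and heat shock proteins, of interest in a heat experiment, were lower in 14 of 38 cases and higher in 3. These shares were 36.8% and 7.9%, against 17.6% and 13.6% of all genes. The lower share was within the 22.0% to 43.6% of expressed protein-coding genes. HSPA8, the constitutive Hsp70, stood at 812, 634 and 379.7 CPM in the controls and at 775, 573 and 359.8 CPM in the heated libraries (-1.10, adjusted p = 0.000861). At each number its control and heated values were closer to each other than to those of the next number. PTGES3 (-1.36), a co-chaperone of Hsp90, CCT6A (-1.16), of the chaperonin ring, and HSPD1 (-1.10), the mitochondrial Hsp60, were lower, and the 3 higher ones were HSPB1 (0.92), AHSA1 (0.82) and HSP90AB1 (0.60). Without control 3 the counts were 6 lower and none higher, and without heated 3, 6 and 2.

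Immediate early genes, which respond within minutes to stimulation, were lower in 9 of 27 cases and higher in 2, EGR1 (0.95) and IER3 (1.28). These shares were 33.3% and 7.4%, against 17.6% and 13.6% of all genes, the lower one again within that of expressed protein-coding genes. KLF10 stood at 254, 159 and 128 CPM and at 243, 152 and 127 CPM (-0.96), and SGK1, a kinase (-1.37), and DUSP1, a phosphatase of MAP kinases (-0.87), were lower. Of 28 pluripotency and first lineage genes 7 were lower (25%, against 17.6% of all genes) and 4 higher (14.3%, near the 13.6% of all genes). The lower share was within the 22.0% to 43.6% of expressed protein-coding genes. GATA6, a factor of primitive endoderm, stood at 94.2, 45.3 and 28.01 CPM and at 91.6, 50.1 and 42.0 CPM (-1.43), whereas ID3, an inhibitor of basic helix-loop-helix factors, stood at 161, 258 and 524 CPM and at 275, 310.0 and 507 CPM (1.28). Of the 5 yippee-like genes YPEL3 was higher, YPEL2 lower (-1.001), and YPEL1, YPEL4 and YPEL5 did not pass. Without control 3, 4 immediate early genes and 4 lineage genes were lower, and without heated 3, 5 and 5.

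The genes with the largest difference included members of no list. SULT1E1, an enzyme that adds sulfate to oestrogens, stood at 403, 99.0 and 16.8 CPM in the controls and at 246, 156 and 23.3 CPM in the heated libraries. The number 1 libraries were above all others and the number 3 libraries below all others (log2 fold change -4.04, standard error 0.32, adjusted p = 0.000818). ITM2A, a membrane protein, had -3.54, and IAPP, the precursor of the hormone amylin, had -3.27. FCF1 stood at 275, 65.7 and 37.0 CPM and at 158, 91.8 and 36.4 CPM (-2.54). It and PNO1 (-2.50) act in assembly of the small ribosomal subunit, and TOMM20 (-2.52), at 405, 129 and 64.7 CPM and 242, 134 and 46.8 CPM, is the receptor for protein import into mitochondria.

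CUTC (-2.69), ASNSD1 (-2.67), CA3, a carbonic anhydrase (-2.57), KRT10, a keratin (-2.55), TIMP2, an inhibitor of matrix proteases (-2.48), and MRPL1 (-2.46) complete the 12 largest in this direction. On the other side, after RN18S, C14H10orf35 stood at 5.95, 40.1 and 72.1 CPM in the controls and at 29.4, 47.4 and 69.1 CPM in the heated libraries (2.25, standard error 0.48, adjusted p = 0.00967). NEIL1, a glycosylase of DNA base excision repair, stood at 6.72, 11.6 and 23.3 CPM and at 7.79, 11.7 and 20.1 CPM (1.58). GFI1, a transcriptional repressor (1.57), TRAF4, a signalling adaptor (1.67), RGS16, a regulator of G protein signalling (1.51), and HILPDA, a lipid droplet protein (1.503), were higher too. The other 5 of the 12 were PIGY, VRK2, MAP7, IL17B and MIF4GD, each of which overlaps a gene with at least 10% of its own counts. C14H10orf35, NEIL1, RGS16, HILPDA and RN18S also overlap other genes, with counts below that level.

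The rule by which reads were divided among overlapping genes is not known here, so these 5 are uncertain. PIGY had a log2 fold change of 1.77, and the sum of PIGY and PYURF had a log2 ratio of 0.33 between the means of the numbers. For VRK2 with FANCL the values were 1.61 alone and 0.70 as a sum, and VRK2 stood at 62.2 CPM in heated 3 against 11.2 to 16.03 CPM in the other 5 libraries. Without heated 3 its log2 fold change was 0.47 (adjusted p = 0.335). The sums of MAP7, IL17B and MIF4GD with their neighbours had log2 ratios of 0.37, 0.42 and 0.27. On the other side, MRPL1 with CNOT6L had -0.75 as a sum against -2.46 alone, while IAPP with SLCO1A2 kept -2.59 against -3.27. Among the 10706 tested genes that overlap no other counted gene, 3362 (31.4%) were called, 1379 higher in number 3 and 1983 higher in number 1.

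The difference between numbers was shared by the temperatures. The change from number 1 to number 3 in controls and that in heated libraries use no common library, and had the same sign in 77.9% of the 17001 genes. Over the 6311 genes at 10 CPM or more on average the share was 87.5%, with Pearson's r = 0.81 and Spearman's rho = 0.88 across genes, which are not independent replicates and share the scaling of their libraries. Called genes differed by a median of -1.28 in controls and -1.07 in heated libraries where number 1 was higher, and by 0.86 and 0.76 where number 3 was higher. They were chosen by a test over both temperatures, so a shared sign is partly built into these medians. The control difference was the larger one for 71.9% and 59.9% of these genes. In a principal component analysis of the same 6311 genes the first component held 73.4% of the variance, and the libraries lay along it at -41.8 (control 1), -22.6 (heated 1), -1.0 (heated 2), 2.7 (control 2), 29.3 (control 3) and 33.5 (heated 3).

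**Figure D4:**
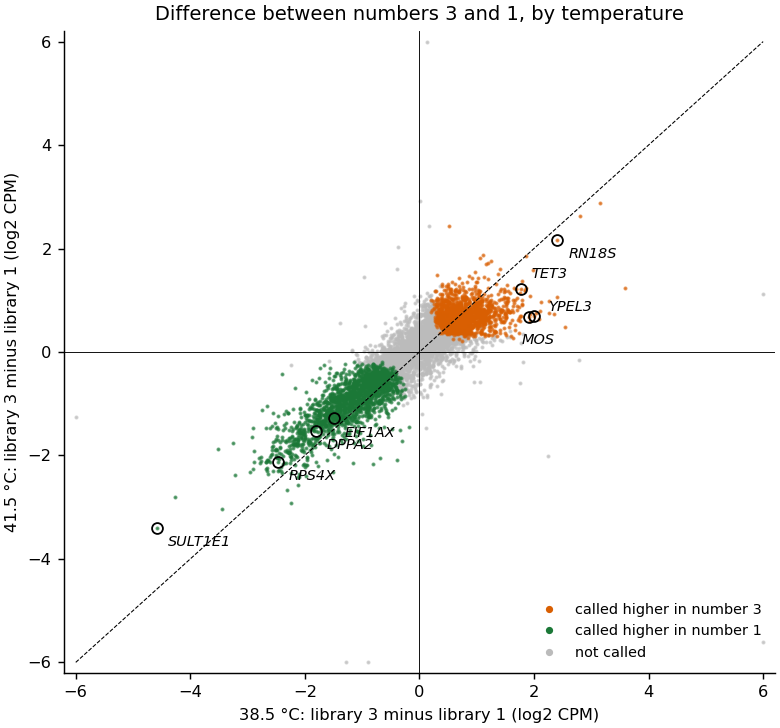
Change from library 1 to library 3 in controls (x axis) and in heated libraries (y axis), in log2 CPM, for genes at 10 CPM or more on average, 1 point per gene, with values beyond 6 drawn at 6. Genes called higher in number 3 are orange, those called higher in number 1 green, others grey, circles mark 8 named genes and the dashed line marks equal change. Both coloured groups lie along the line in the same quadrants, with MOS and YPEL3 changing more in controls. The coloured genes were called over both temperatures, so their place in these quadrants follows in part from the choice.

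A test of whether the difference between numbers depended on temperature called 2 genes (0.0118%), PIGZ and PHYKPL, both of which overlap another counted gene, while DESeq2 called 6. The temperature comparison itself, with group as the single term, called 0 of 17001 genes (0.0%) by edgeR's quasi-likelihood test, with 327 at an unadjusted p below 0.05, and 7 genes by DESeq2. With the replicate number as a block these edgeR counts were larger, and they are given in the closing section on processing. PIGZ had 192 CPM in control 3, 4.83 CPM in heated 1 and at most 0.0657 CPM in the other 4 libraries, and its sum with NCBP2 had a log2 ratio of -1.38 between the means of number 3 and number 1. PHYKPL had 25.9 CPM in control 1, 16.8 CPM in heated 3 and at most 0.656 CPM in the other 4, and its sum with HNRNPAB had -0.93.

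**Figure D5:**
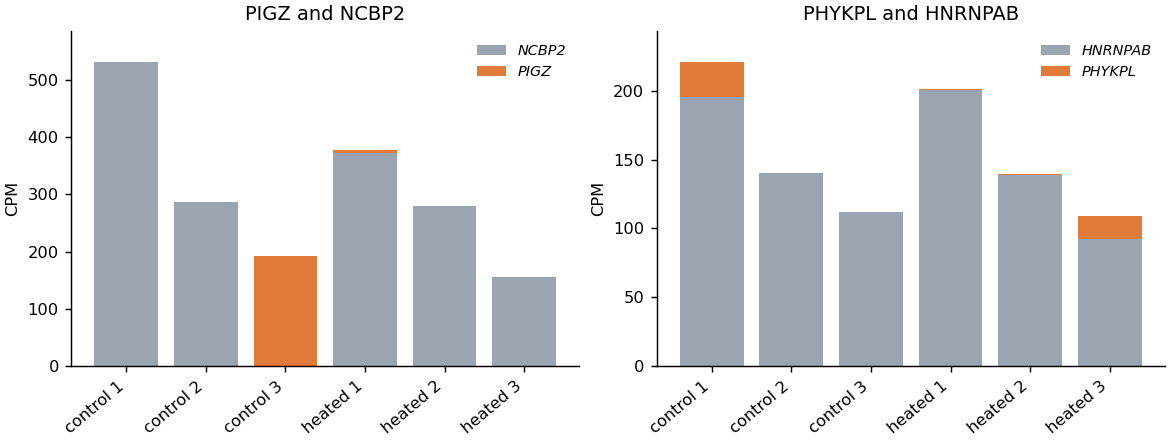
Stacked level (CPM, axis from 0) of the overlapping genes PIGZ and NCBP2, and of PHYKPL and HNRNPAB, in each of the 6 libraries, 1 bar per library and no error bar. The height of the bars is greatest in the number 1 libraries at both temperatures, and control 3 is the library in which the first pair is listed under PIGZ alone.

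The common dispersion, a measure of the spread of counts around the fitted means, was 0.115 with temperature as the only term and 0.0341 when number was added.

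The number 2 libraries lay between the others for most genes that differed. To keep the choice of genes apart from these libraries, genes were called from the 4 libraries of numbers 1 and 3 alone, which gave 5316. For 4205 of them (79.1%) the number 2 value lay between numbers 1 and 3 at both temperatures. The share was 37.8% of all genes tested and 18.9% of those not called. Called genes were chosen for a clear gap between numbers 1 and 3, into which any value near the average falls easily. Genes not called mostly have a smaller or less consistent gap. The contrast between these shares thus follows in part from the choice, and no conclusion is drawn from it. On a scale where number 1 is 0 and number 3 is 1, the median position of number 2 over the called genes was 0.62 in controls and 0.41 in heated libraries. In heated libraries the position was 0.37 for genes higher in number 1 and 0.52 for genes higher in number 3, and in controls it was 0.63 and 0.62.

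Steps between neighbouring numbers gave few calls by edgeR. Number 2 against number 1 gave 5 genes (0.0294%), with 3866 at an unadjusted p below 0.05 and 1559 calls by DESeq2. The 5 genes were RMND5B, IL17B, LOC102158691, LOC110258214 and LOC110258600, all higher in number 2. Number 3 against number 2 gave 2 genes (0.0118%), RMND5B, lower in number 3, and LOC110255521, higher, with 3146 at an unadjusted p below 0.05 and 1009 calls by DESeq2. These genes are named because the counts are small.

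RMND5B, whose product takes part in an E3 ubiquitin ligase, was highest in the number 2 libraries at both temperatures, at 2.63, 11.2 and 1.47 CPM in the controls and 2.08, 8.52 and 0.92 CPM in the heated libraries. It overlaps NHP2, a small ribonucleoprotein subunit, and the sum of both stood at 158, 89.2 and 66.8 CPM and at 126, 81.1 and 49.0 CPM, where number 2 lay between the others. LOC110255521, a long noncoding RNA that overlaps ACBD6, stood at 39.5, 24.3 and 104 CPM and at 33.1, 25.3 and 101 CPM, with number 2 lowest at both temperatures. LOC110258600, which overlaps RN18S, stood at 0.927, 4.49 and 7.76 CPM and at 2.52, 12.4 and 17.7 CPM, lowest in number 1 and highest in number 3 like RN18S itself. LOC102158691, a V segment, had no count in either number 1 library and 59, 78, 75 and 78 counts in control 2, control 3, heated 2 and heated 3.

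Genes higher in number 3 and number 1 differed in kind. Long noncoding RNA made up 18.5% of the genes higher in number 3, 6.44% of those higher in number 1 and 16.1% of all tested. The share of counts in long noncoding RNA was 4.37, 5.13 and 5.59% in the controls and 4.02, 4.98 and 5.56% in the heated libraries (exact permutation p = 0.0556, the smallest possible). The median genomic span was 41406 bp for genes higher in number 3 and 21300 bp for those higher in number 1, against 26569 bp for all. A transcript length was derived from the deposited counts and FPKM. By this length, the 5724 protein-coding genes at 10 CPM or more on average were split into 4 equal groups. The share higher in number 1 ran from 43.6% in the shortest to 22.0% in the longest, and the median log2 fold change from -0.35 to 0.11. Spearman's rho between length and log2 fold change was 0.16 in these genes. Over the 15395 tested genes of any level that had a length it was 0.05. The list of cytosolic ribosomal proteins consists of short genes. The part of transcript length in the differences between lists was not tested.

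Markers of other cells were low. A few were lower in number 3, in shares that did not stand out from those of expressed genes. Of 9 tested genes of the cumulus and granulosa list 3 were lower in number 3 (33.3%, against 17.6% of all genes) and 1 higher. The lower share was within the 22.0% to 43.6% of expressed protein-coding genes. AREG, an epidermal growth factor ligand, stood at 12.5, 9.29 and 7.03 CPM in the controls and at 14.1, 8.77 and 6.64 CPM in the heated libraries (-0.96, adjusted p = 0.00661), and STAR, which carries cholesterol into mitochondria, had 61, 46 and 28 counts and 63, 53 and 15 counts. PTGS2 had 0 to 32 counts and overlaps PLA2G4A. GREM1, an antagonist of bone morphogenetic proteins, was higher (0.91). AREG passed neither without control 3 nor without heated 3 (adjusted p = 0.0539 and 0.0923), and in each case 1 member of the list was lower and none higher. Of 9 tested stromal and blood genes 1 was lower, a share below the 17.6% of all genes. It was PTPRC, the CD45 antigen of blood cells, with 46, 20 and 24 counts in the controls and 68, 39 and 27 in the heated libraries (-1.26, adjusted p = 0.0298). Its call was lost without control 3 (0.0919) and without heated 3 (0.257), and the list had a median of -0.67. KRT18, a keratin of early epithelia and of the trophectoderm list, had 35, 13 and 0 counts and 33, 14 and 10 counts (adjusted p = 0.0404, and 0.156 without control 3). The summed level of the trophectoderm and later embryo list was 155, 92.9 and 72.7 CPM in the controls and 155, 97.3 and 94.2 CPM in the heated libraries, led by GATA6, with CDX2, its defining gene, at 0 counts in 5 libraries and 2 in heated 1. The part of these levels in the differences between numbers was not tested.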

How the data were processed

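The 6 libraries were grouped by temperature and by replicate number as the labels give them. Per the file headers, the authors' series table gives raw read counts for each gene. The same deposited table gives FPKM and TPM, which entered only as alternatives and for transcript length. Deposited tables per library also hold coverage as a signal, which was not used. Tools listed in the submitters' processing notes are StringTie 2.1.3b, Bowtie2, HISAT, HISAT2 2.1.0 and Trimmomatic 0.38, with the build Sscrofa11.1. Which tool counted reads, and how it treated overlapping genes, was not given in the sources used. Columns were compared with each library's own deposited table: 99.1% to 99.3% of genes were equal within 1e-05, against at most 0.103% in any other.

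Genes with 10 or more counts in 2 or more libraries were kept (17001 genes, 99.9% of reads). The quasi-likelihood test of edgeR 4.0.16 (R 4.3.3) was run on them with TMM scaling, number as a factor, temperature as a block and Benjamini-Hochberg adjustment at 0.05, over all genes kept. With 6 libraries the fit had 2 residual degrees of freedom. The test was tried on simulated data. CPM uses TMM-scaled library sizes, and log2 CPM a prior count of 1. DESeq2 1.42.0 and limma 3.58.1 (on log2 of FPKM or TPM plus a pseudocount of 1 or 0.1) were alternatives. Single values per library were tested by permuting numbers within each temperature. The 24 genes without a symbol (0.527% to 0.658% of counts) were kept. Positions come from a RefSeq table of Sscrofa11.1 (30352 identifiers matched, 30324 at the same position).

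The comparison, its 5 marker genes and the gene lists were chosen with earlier results of these data known, so lists are described by counts and medians without a test. Named are the 5 markers, the 12 called genes per direction with the largest change at a mean of 10 CPM or more (symbols other than LOC), up to 4 members per list by smallest p, and the 5 smallest p of the interaction and of the steps between numbers. Other genes were named after their values were seen, to make up counts of 5 or fewer or to show members of a list that changed differently. Genes were kept whatever their overlap with others, and sums of overlapping genes were given for those named. Some genes that the rule names are not reported here.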

Additional observations from a re-analysis of the deposited data

Results flagged for a closer look

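For 2 genes the difference between numbers depended on temperature by the interaction test of edgeR, PIGZ (adjusted p = 3.61e-05) and PHYKPL (adjusted p = 0.00577). PIGZ, an enzyme of membrane anchor synthesis, had 0, 0 and 5749 counts in control 1, 2 and 3 and 142, 0 and 2 counts in heated 1, 2 and 3. NCBP2, the small subunit of the nuclear cap-binding complex, which overlaps it, had 13777, 8366 and 0 counts and 10925, 8125 and 4739 counts. In control 3 all reads of the pair were thus listed under PIGZ, and in the other 5 libraries nearly all under NCBP2. The sum of both stood at 532, 287 and 192 CPM in the controls and at 377, 280 and 156 CPM in the heated libraries, highest in number 1 and lowest in number 3 at both temperatures.

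PHYKPL, a lyase of hydroxylysine breakdown, had 670, 14 and 8 counts in the controls and 12, 19 and 511 counts in the heated libraries. Control 1 and heated 3 stood apart from the other 4. HNRNPAB, an RNA-binding protein gene that overlaps it, had 5057, 4085 and 3335 counts and 5893, 4025 and 2805 counts. The sum of both stood at 221, 140.5 and 112 CPM in the controls and at 201, 139.6 and 109 CPM in the heated libraries, again highest in number 1 and lowest in number 3. For both pairs the sum moved alike at both temperatures, while the division between the genes differed between libraries.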

How the results depend on the processing

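For number 3 against number 1, the 5301 calls ranged from 1809 to 6453 when 1 library was left out. They were 3505 with limma on log2(FPKM + 1) and no filter, and 3362 over genes that overlap no other (an alternative chosen after seeing the data, with fewer genes tested). DESeq2 gave 4435, and relative log expression factors gave 1976 higher and 3150 lower. limma with a filter gave 3453 higher and 2111 lower on log2(FPKM + 1), and 3728 and 2123 on log2(TPM + 1). Of the calls that each alternative shared with the 5301, at least 99.98% had the same sign.

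The interaction gave 6 calls with DESeq2 and 62 with no filter. Number 2 against number 1 gave 1559 with DESeq2, 292 with library totals and 525 with no filter. Number 3 against number 2 gave 1009 with DESeq2, 93 with edgeR's default filter, 4 with library totals, 479 with no filter and 87 with relative log expression factors. Temperature gave 7 with DESeq2, 1 with no filter and 0 with any library left out. The cause was not tested for any of these.

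With the replicate number as a block, temperature gave 3 calls, WISP3 and LSMEM2 (lower in heated libraries) and MOGAT1 (higher). At an unadjusted p below 0.05 there were 1527 genes with the block and 327 without it. Deviations from the temperature means correlated, across 6311 genes, at 0.75 between the number 1 libraries, -0.0055 between the number 2 libraries and 0.81 between the number 3 libraries. Control 2 and heated 2 did not correlate best with their own number. Both lay near the middle of the first principal component (2.7 and -1.0), where deviations along it are small, so their correlation cannot decide about pairing. Whether the numbers pair the samples is not known from the labels, and the temperature comparison was run without the block first.

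Directions turned, over libraries left out in turn, for 4 genes not called with all libraries. PIGZ ranged from -6.16 (without control 3; -6.03 without control 1) to 15.4, PHYKPL from -5.92 to 4.95 (without control 1; 3.35 without control 3), TIFA from -3.93 to 1.63 (without control 1) and NFKBIZ from -2.64 to 0.75 (without heated 1; 0.52 without heated 3). Some of these values passed the test. The mRNA storage list had a median of 0.0417 with library totals, 0.0645 on log2(FPKM + 0.1), 0.0497 on log2(FPKM + 1), 0.0496 without its filter and 0.0992 on log2(TPM + 1). The mitosis list ranged from -0.0029 (without heated 1) to 0.13. Medians of the stromal and blood list (-0.67) and of the cumulus and granulosa list (-0.21) turned to 0.42 and 0.30 on log2(FPKM + 1). The difference in the summed level turned to 9.08 CPM for the oocyte and embryo markers and to 1.57 CPM for the cumulus list without their most abundant member. With 1 library per temperature and number, the spread rests on 2 residual degrees of freedom, and intervals of single values cannot be given.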
